A study of Mus musculus with 6 samples.

Results

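The enzymes that make and remove retinoic acid, the proteins that carry it and its nuclear receptors were described through 10 mouse genes, Rdh10, Dhrs3, Aldh1a2, Stra6, Crabp1, Crabp2, Cyp26b1, Rara, Rarb and Rarg. All non-control probes that carried 1 of these gene names were taken, which gave 13 of the 55681 probes on the array. Of these, 8 genes had 1 probe, Rara had 2 and Rarb had 3. The files also pair each probe with a transcript. Genes were assigned by transcript, or by gene name where no transcript matched, and all 13 probes led to the same gene.

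RNA came from mesenchymal cells of the mouse forelimb autopod, the hand plate in which the digits form, at E11.5, a stage of midgestation. All embryos were C57BL/6 animals carrying EGFP knocked into the Sox9 locus, and flow cytometry parted Sox9-EGFP positive cells from those negative for EGFP. Each group had 3 samples, each of them a pool of some 10 autopods read on 1 Agilent array with a single dye. The study concerns digit patterning by Bmp, Wnt and Sox9, of which Sox9 marks the cells that will form cartilage. The labels name neither the sorting gates nor whether samples came from separate litters or sorts, so that p-values measure the spread between these samples only.

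Retinoic acid is a small signalling molecule made from vitamin A. Rdh10 oxidises retinol to retinaldehyde, Dhrs3 reduces retinaldehyde back to retinol, and Aldh1a2 carries out the last, irreversible step to retinoic acid. Enzymes of the Cyp26 family degrade it, and it acts through the receptors Rara, Rarb and Rarg, which bind DNA as partners of the retinoid X receptors at direct repeats of a short hexamer. In the mouse limb bud, Cyp26b1 keeps the distal mesenchyme low in retinoic acid, and retinoid receptor signalling is known to restrain the differentiation of cartilage precursors.

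Because these receptors bind direct repeats, the stretches upstream of transcription starts were read for them. RefSeq windows on GRCm38.p6, running from 250 bases before to 50 bases after a start, were matched for 8 of the 10 genes, in 17 windows. Rdh10 and Crabp2 had no window and were not read. The repeat searched was a pair of hexamers on either strand, separated by 1, 2 or 5 bases. Each hexamer could be AGGTCA itself, or its variant with T as the third base, AGTTCA, or the forms that begin with G instead, which are spelled GGGTCA and, with T as the third base, GGTTCA. Spacing by 5 bases occurred in 0.0974% of the 32851 windows of all genes, spacing by 2 in 0.268% and spacing by 1 in 0.222%, while a single hexamer occurred in 43.7%. Among the 17 windows, that of Rarb alone held such a repeat, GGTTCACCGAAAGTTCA with a spacer of 5 bases, at -53 to -37 from the start. Rarb is a known retinoic acid target, with a response element in its promoter. Its 250 upstream bases (chr14:16575477-16575726, minus strand) are shown with both hexamers of the repeat in capitals, beside those of Rarg (chr15:102257523-102257772, minus strand), a receptor gene without a repeat in either of its 2 windows, of which the first is shown and where the capitals mark the only hexamer, read on the opposite strand. Those of Aldh1a2 (chr9:71215539-71215788, plus strand) and Cyp26b1 (chr6:84593811-84594060, minus strand) are shown for the enzymes that make and degrade retinoic acid.
Rarb: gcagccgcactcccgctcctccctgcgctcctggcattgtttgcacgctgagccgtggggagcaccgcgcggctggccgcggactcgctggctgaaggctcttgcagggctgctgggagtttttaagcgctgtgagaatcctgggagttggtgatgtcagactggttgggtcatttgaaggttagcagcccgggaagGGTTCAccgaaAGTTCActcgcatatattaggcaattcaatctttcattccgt
Rarg: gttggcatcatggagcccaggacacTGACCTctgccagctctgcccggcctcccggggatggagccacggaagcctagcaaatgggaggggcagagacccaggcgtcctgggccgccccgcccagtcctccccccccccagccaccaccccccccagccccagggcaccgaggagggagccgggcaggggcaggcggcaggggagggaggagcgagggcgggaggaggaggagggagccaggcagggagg
Aldh1a2: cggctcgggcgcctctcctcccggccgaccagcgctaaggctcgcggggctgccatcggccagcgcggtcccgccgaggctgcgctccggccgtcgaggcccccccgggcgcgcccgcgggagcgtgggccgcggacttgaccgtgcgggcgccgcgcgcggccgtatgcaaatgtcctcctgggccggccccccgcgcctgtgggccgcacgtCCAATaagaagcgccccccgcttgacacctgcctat
Cyp26b1: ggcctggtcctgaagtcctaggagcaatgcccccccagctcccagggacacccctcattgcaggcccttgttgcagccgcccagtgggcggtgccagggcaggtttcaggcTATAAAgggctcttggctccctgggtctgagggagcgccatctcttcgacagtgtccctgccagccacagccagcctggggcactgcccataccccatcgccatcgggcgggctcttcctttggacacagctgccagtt
In the Aldh1a2 stretch the capitals mark CCAAT at -36 to -32, a motif found on either strand of 37.4% of all windows. In the Cyp26b1 stretch they mark TATAAA, found in 13.6%, at -139 to -134 from the start. The Aldh1a2 stretch was 77.6% G and C, against a median of 52.4% over all windows, and the other stretches were 74.4% (Rarg), 64.8% (Cyp26b1) and 58% (Rarb). A matching string of letters is a description and not a site of binding, and a window without one says only that these letters are not in it.

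Levels are log2 signals from which the array's own 75th percentile, taken over non-control spots, was subtracted, and differences are given as positive minus negative. The test took in the 26473 probes that stood well above background on every array of one group or of both, and a probe was called if its adjusted p from limma, over all of them, was under 0.05. Sox9 itself had log2 levels of 3.52, 2.99 and 3.60 in the positive samples, against -0.88, -1.0 and -1.13 in the negative samples, which matches the labels. Signal strength differed between arrays, with a 75th percentile of 126 units on positive array 1 and 385 to 478 units on the other 5 arrays. Positive array 1 also had the fewest spots that stood well above background, 24743, where the others had 29800 to 35277. Arrays of positive cells correlated with each other at 0.964 to 0.992, those of negative cells at 0.984 to 0.993, and arrays of different groups at 0.941 to 0.970.

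Of the 13 probes, 11 were tested, covering all 10 genes, and these 11 were above background on all 6 arrays. The 4 probes called higher in Sox9-EGFP positive cells were those of Aldh1a2, Rarb, Dhrs3 and Crabp2, and the 3 called lower were those of Cyp26b1, Crabp1 and Stra6. No probe of Rara, Rarg or Rdh10 was called. Over all tested probes 21.6% were called, 7.96% as higher and 13.7% as lower, and over the brightest probe of each named gene 26.7%. The 7 of 11 lay above both shares. The members were chosen with earlier results of these data known, so that this excess is not a test of them. The groups did not overlap for 8 of the 11 probes, against 43.2% of all tested probes. The median difference over all tested probes was -0.10.

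**Figure D1:**
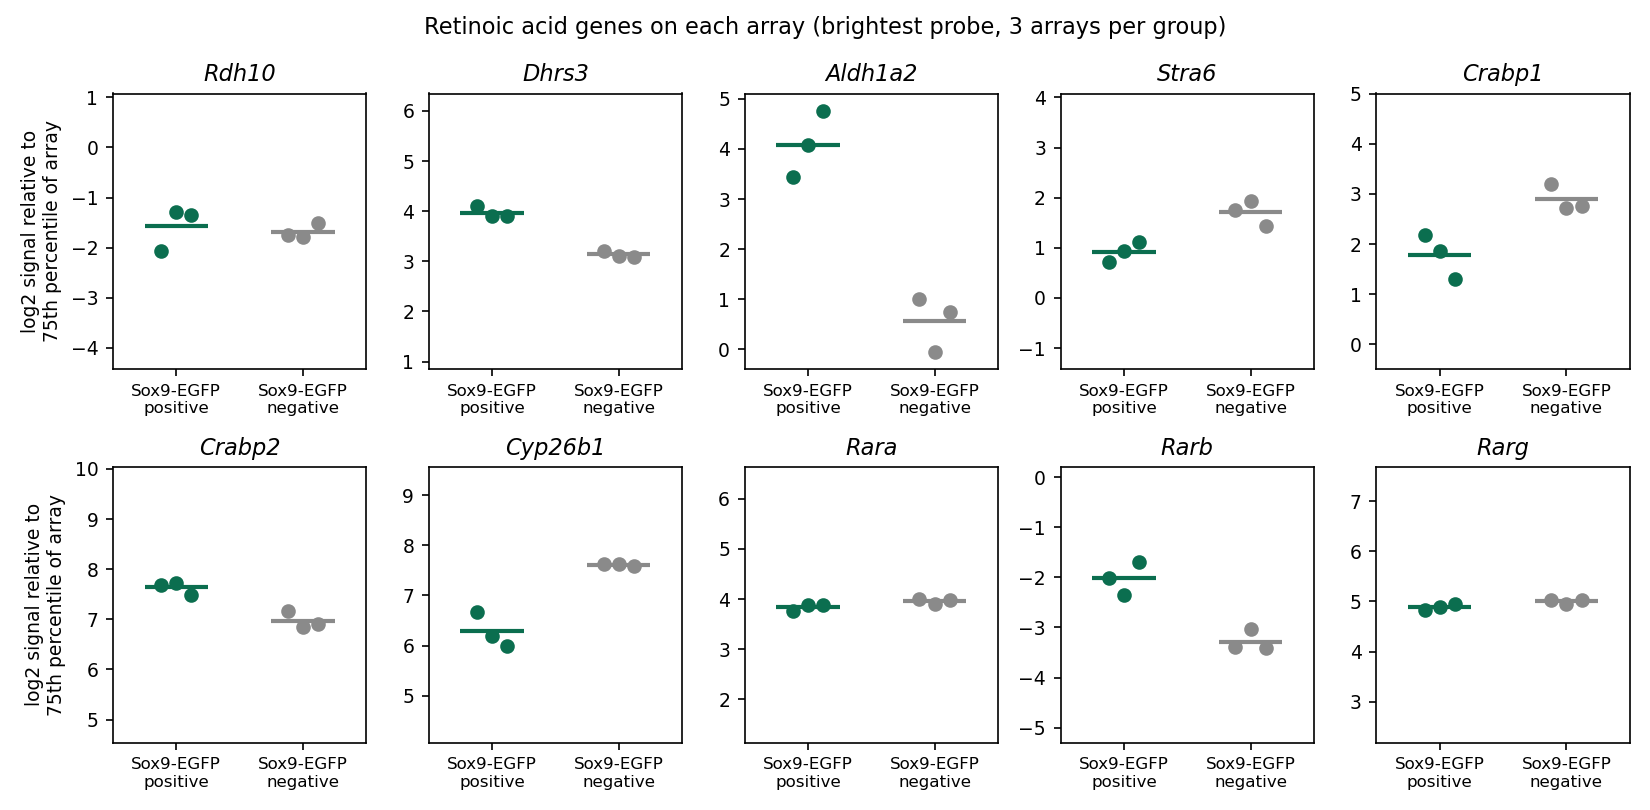
Log2 signal relative to the 75th percentile of the array (y axis, the same span in each panel) for the brightest probe of each of the 10 genes, with 1 point per array (1, 2 and 3 from left to right) and a line at the mean of 3 arrays, Sox9-EGFP positive on the left and negative on the right. The groups are farthest apart for Aldh1a2, where the positive arrays lie between 3.43 and 4.75 and the negative arrays between -0.04 and 1.01.

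Aldh1a2 showed the largest difference of the 10 genes. Its probe (mm9 chr9:71143931-71143990) had log2 levels of 3.43, 4.07 and 4.75 in the positive samples, against 1.01, -0.04 and 0.74 in the negative samples. All 3 positive samples lay above all 3 negative samples, by more than 2 log2 units, while the samples within each group were spread over slightly more than 1 unit. The level averaged 4.09 ± 0.66 in positive cells and 0.57 ± 0.55 in negative cells (SD, n = 3 each). The difference was 3.52 (SE 0.41, 95% interval 2.51 to 4.52), which is 11.4-fold, with a limma adjusted p of 0.00439. It ranked 80 among the probes with higher levels in positive cells, and it was 3.33 to 3.74 within each of the 3 slides, on which a positive and a negative array lay together. In samples of sorted cells, more cells with Aldh1a2 RNA and more RNA per cell cannot be told apart.

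The enzymes on either side of retinaldehyde differed less. Dhrs3 (chr4:144517485-144517544), which returns retinaldehyde to retinol, had log2 levels of 4.10, 3.90 and 3.90 in the positive samples, against 3.21, 3.11 and 3.09 in the negative samples. Its groups were tight and did not overlap, and the difference was 0.83 (SE 0.13, 1.78-fold, limma adjusted p = 0.00902). Rdh10 (chr1:16122062-16122121), which makes retinaldehyde from retinol, had log2 levels of -2.06, -1.29 and -1.35 in the positive samples, against -1.74, -1.78 and -1.51 in the negative samples. Here the groups overlapped, positive sample 1 lying below every negative sample and positive samples 2 and 3 above every one. The Rdh10 difference was 0.11 (95% interval -0.47 to 0.69, limma adjusted p = 0.779), an interval that reaches to differences of about the size seen for Crabp2. Without positive array 1 it was 0.36 (adjusted p = 0.127).

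Proteins that take up retinol or bind retinoic acid in the cytoplasm went in both directions. Stra6 (chr9:58001701-58001760), the membrane receptor through which cells take up retinol from its carrier in blood, had log2 levels of 0.71, 0.94 and 1.12 in the positive samples, against 1.75, 1.94 and 1.43 in the negative samples. The groups did not overlap. The difference was -0.79 (SE 0.19, 1.72-fold lower, limma adjusted p = 0.0332), and the call did not hold when any single array was left out, the adjusted p then being 0.0519 to 0.115. It was also lost with quantile normalization (-0.65, adjusted p = 0.0839) and in the authors' own normalized values (-0.58, adjusted p = 0.0577).

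Crabp1 and Crabp2 encode 2 related cytoplasmic proteins that bind retinoic acid. Crabp2 hands it to the receptors in the nucleus, and Crabp1 is linked to its breakdown in the cytoplasm. Crabp1 (chr9:54616192-54616251) had log2 levels of 2.17, 1.87 and 1.30 in the positive samples, against 3.20, 2.72 and 2.75 in the negative samples. Crabp2 (chr3:87757207-87757266) had log2 levels of 7.69, 7.73 and 7.49 in the positive samples, against 7.17, 6.85 and 6.91 in the negative samples. Neither gene's groups overlapped, with Crabp1 low and Crabp2 high in every positive sample. The Crabp1 difference was -1.11 (SE 0.26, 2.16-fold lower, limma adjusted p = 0.0323), and the Crabp2 difference was 0.66 (SE 0.15, 1.58-fold, limma adjusted p = 0.0268).

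Both calls were near the threshold. With the slide as a block the Crabp1 adjusted p was 0.0544, and the difference was -0.55, -0.88 and -1.90 within the 3 slides. The Crabp1 call was lost without positive array 2 or 3 or without any negative array (adjusted p of 0.0668 to 0.110), and it was also lost with quantile normalization (-0.90, adjusted p = 0.0703). The Crabp2 call was lost without the same 5 arrays, each in turn (adjusted p of 0.0574 to 0.102).

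Cyp26b1 (chr6:84521952-84522011), the enzyme that degrades retinoic acid in the limb bud, was lower in positive cells. Its log2 levels were 6.68, 6.19 and 5.99 in the positive samples, against 7.63, 7.63 and 7.59 in the negative samples. The negative samples were nearly equal and all lay above the positive ones, which spread over 0.7 log2 units. The level averaged 6.29 ± 0.35 in positive cells and 7.62 ± 0.02 in negative cells (SD, n = 3 each). The difference was -1.33 (SE 0.20, 2.52-fold lower, limma adjusted p = 0.00856), and within the 3 slides it was -0.95, -1.40 and -1.64.

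**Figure D2:**
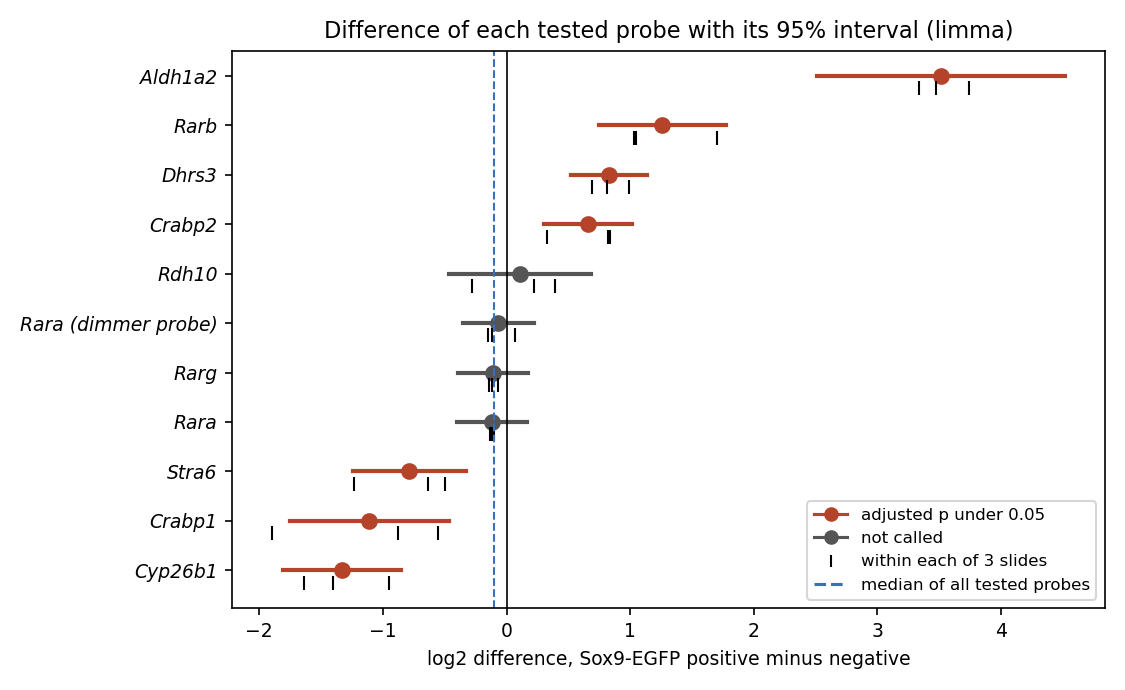
Log2 difference, Sox9-EGFP positive minus negative (x axis), of the 11 tested probes, with the 95% interval of limma as a bar, the difference within each of 3 slides as ticks, and the median of all tested probes, -0.10, as a dashed line. Red marks the 7 probes with an adjusted p under 0.05, from Aldh1a2 at 3.52 to Cyp26b1 at -1.33, and grey those not called.

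Of the 3 retinoic acid receptors, Rarb was called and Rara and Rarg were not. Rarb has the upstream direct repeat shown above. The windows of the other called genes lacked such a repeat, except that Crabp2 had no window to read. A link between the repeat and the level of Rarb was not tested. Its brightest probe (chr14:17263367-17263426) had log2 levels of -2.01, -2.36 and -1.69 in the positive samples, against -3.40, -3.04 and -3.41 in the negative samples. The groups did not overlap, and every sample lay well below the 75th percentile of its array. The difference was 1.26 (SE 0.21, 95% interval 0.74 to 1.78, 2.40-fold), with a limma adjusted p of 0.0121. It was smaller with normexp background correction and quantile normalization (0.50, adjusted p = 0.0281) and in the authors' own normalized values (0.49, adjusted p = 0.0302). The scanner signal of this probe averaged 80.1 units in positive samples and 44.8 units in negative samples, and the normexp setting adds an offset of 50 units to every spot. The call was lost without negative array 1 (adjusted p = 0.0565) or negative array 3 (adjusted p = 0.0568).

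The other Rarb probes were dim and were not tested. One, 1281 bases from the first (chr14:17264648-17264707), had log2 levels of -4.93, -4.16 and -3.98 in the positive samples, against -5.65, -5.42 and -5.84 in the negative samples. It was well above background on 2 of 3 positive arrays and on no negative array. The measured difference was 1.28. No lower bound on the fold was drawn, because positive array 1 was itself not well above background. The remaining probe lay 388057 bases from the first (chr14:17651424-17651483) and had log2 levels of -4.99, -6.18 and -6.99 in the positive samples, against -6.69, -6.89 and -4.48 in the negative samples. Only negative array 3 was well above background there, and the groups overlapped.

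Rara had 2 probes, 1 of them brighter. The brighter (chr11:98836197-98836256) had log2 levels of 3.76, 3.87 and 3.89 in the positive samples, against 4.0, 3.89 and 3.98 in the negative samples. The dimmer (chr11:98835350-98835409) had log2 levels of 2.13, 2.04 and 1.99 in the positive samples, against 2.14, 2.06 and 2.16 in the negative samples. At the brighter probe the groups were separated by less than 0.01 log2 units, and at the dimmer probe they overlapped. The difference was -0.12 (95% interval -0.40 to 0.17, limma adjusted p = 0.528) at the brighter probe and -0.07 (SE 0.12, limma adjusted p = 0.731) at the dimmer one.

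Rarg (chr15:102065371-102065430) had log2 levels of 4.83, 4.89 and 4.95 in the positive samples, against 5.03, 4.95 and 5.03 in the negative samples. The groups overlapped at a single pair of samples. The difference was -0.11 (95% interval -0.39 to 0.17, limma adjusted p = 0.543). For Rara and Rarg the intervals reach to a decrease of about 0.4 log2 units, and the sign of the difference depended on the scaling. With quantile normalization the difference was 0.19 for Rara and 0.26 for Rarg, and in the authors' values 0.16 and 0.27, all of them without a call. The Rdh10 difference turned to -0.10 with quantile normalization and to -0.05 in the authors' values.

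**Figure D3:**
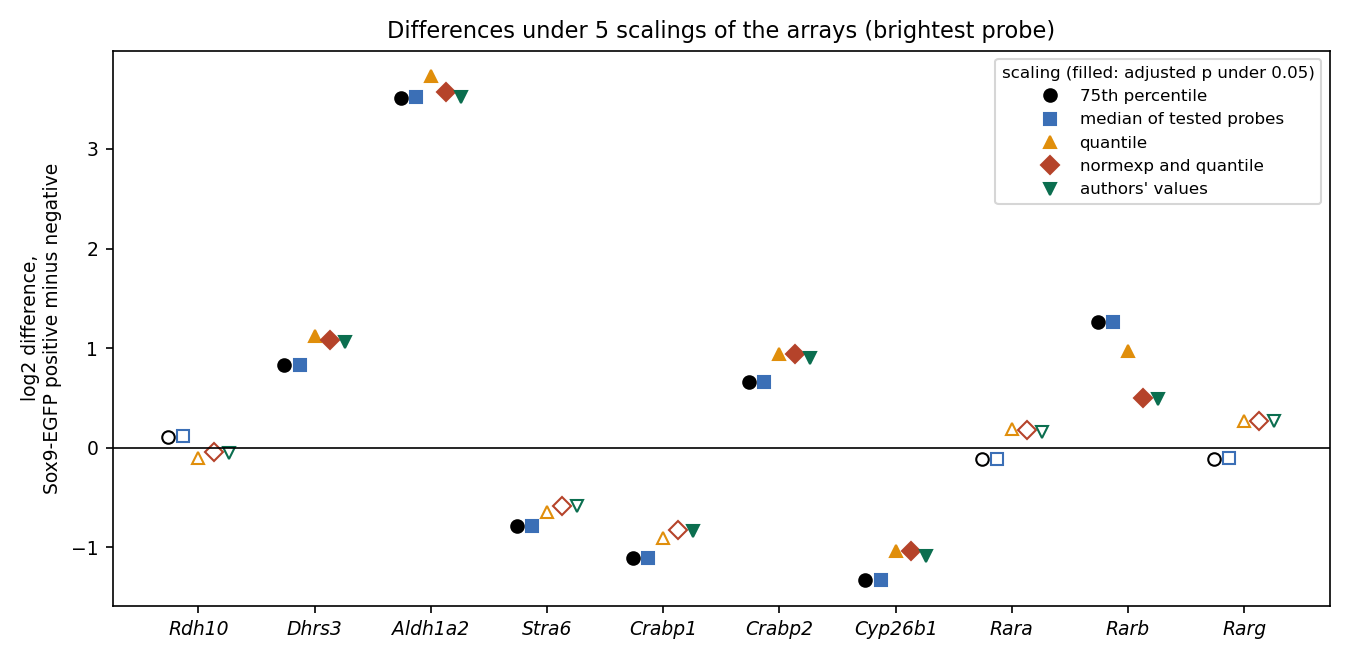
Log2 difference, Sox9-EGFP positive minus negative (y axis), of the brightest probe of the 10 genes under 5 scalings of the arrays, filled where the adjusted p was under 0.05. Aldh1a2 stays between 3.52 and 3.73, Rarb ranges between 0.49 and 1.27, and Rara, Rarg and Rdh10 lie on both sides of 0.

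Changes were also set against each other within arrays, which makes the comparison of a pair independent of a shift of the whole array. There were 7 pairs, and an exact permutation test over the 3 against 3 arrays cannot give a p below 0.1. The intervals do not come from that test. They are t intervals from the SD pooled over both groups, without adjustment over the pairs. The change of Aldh1a2 exceeded that of Cyp26b1 by 4.85 log2 units (95% interval 3.01 to 6.68, exact p = 0.1, 0.117 adjusted over the pairs), and that of Rdh10 by 3.40 (95% interval 2.37 to 4.44). The changes of the cytoplasmic binding proteins differed by -1.77 for Crabp1 minus Crabp2 (95% interval -2.33 to -1.21). The difference between Rarb and Rarg was 1.37 (95% interval 0.73 to 2.02), that between Rara and Rarb -1.38 (95% interval -2.06 to -0.70), and that between Rdh10 and Dhrs3 -0.72 (95% interval -1.64 to 0.20). In these 6 pairs the 3 positive arrays were separate from the 3 negative arrays, which gives each the smallest exact p of 0.1, so that none passes a threshold of 0.05. Rara and Rarg changed by nearly the same amount, with a difference of -0.0052 (95% interval -0.06 to 0.05, exact p = 0.6), and of -0.07 with quantile normalization and -0.11 in the authors' values. For Rarb against Rarg the value was 0.71 with quantile normalization and 0.22 in the authors' values, and for Rara against Rarb -0.78 and -0.33. The value for Rdh10 against Dhrs3 was -1.23 with quantile normalization and -0.41 without positive array 1.

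Beyond the 10 genes, 89 other genes of retinoid metabolism, transport, reception and response were listed, of which 88 had a probe and 58 were tested. Of these, 9 were higher and 7 lower in positive cells, and 42 were not called. Over the brightest probe of all 13193 named genes, 26.7% were called, 8.53% as higher and 18.1% as lower, so that the 16 calls of 58 were near the share of the array. The median difference was 0.16 over the 58 genes, against -0.18 over all named genes.

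In the list of synthesis and storage 12 of 25 genes were tested, with 1 higher, 1 lower and a median difference of 0.12. Rdh5, a retinol dehydrogenase known from the eye, was higher, with log2 levels of 0.20, 0.24 and 0.43 in the positive samples, against -0.66, -0.52 and -0.63 in the negative samples (difference 0.89, SE 0.13, limma adjusted p = 0.00762). Its groups did not overlap. Aldh1a7, a near copy of Aldh1a1 whose probe may not tell them apart, was lower (difference -0.86, limma adjusted p = 0.0235). It was well above background on 2 of the 3 positive arrays, and it lost its call in the authors' values (-0.39, adjusted p = 0.0876) and without positive array 2 or 3 or negative array 1 or 3 (0.0648 to 0.0931). The other retinaldehyde dehydrogenases that make retinoic acid, Aldh1a1 and Aldh1a3, were not well above background on all 3 arrays of either group, and neither were the other Cyp26 enzymes, Cyp26a1 and Cyp26c1. The 1 tested gene among 4 of breakdown was Cyp1b1, a cytochrome P450 that can also oxidise retinoids. Its log2 levels were -4.51, -3.11 and -2.96 in the positive samples, against -1.25, -1.01 and -1.86 in the negative samples (difference -2.15, SE 0.46, limma adjusted p = 0.0238), and positive array 1 was not above background for it. The Cyp1b1 difference was -1.06 in the authors' values, and its call was lost without any single negative array (adjusted p of 0.0572 to 0.0872).

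Of 10 transport genes 5 were tested, and 1 of them, Fabp5, was lower. Fabp5, a fatty acid binding protein that can carry retinoic acid to the receptor Ppard, had log2 levels of 5.92, 5.54 and 5.13 in the positive samples, against 6.76, 6.94 and 6.92 in the negative samples. The groups did not overlap, and the difference was -1.34 (SE 0.22, limma adjusted p = 0.0108). Without negative array 3 its adjusted p was 0.0518, and without each of the others it stayed under 0.05. Rbp4, the carrier of retinol in blood, was not called (difference 0.23, limma adjusted p = 0.366).

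All 8 other receptors were tested, and the 1 called was Nr2f2, an orphan nuclear receptor. Its log2 levels were 3.69, 3.59 and 3.49 in the positive samples, against 2.28, 1.99 and 1.89 in the negative samples, with no overlap and a difference of 1.54 (SE 0.15, limma adjusted p = 0.00254). The retinoid X receptors, partners of the retinoic acid receptors, had differences of -0.32 for Rxra (SE 0.20, limma adjusted p = 0.318), -0.04 for Rxrb (SE 0.17, limma adjusted p = 0.898) and 0.21 for Rxrg (SE 0.49, limma adjusted p = 0.803). The Rxrg levels spread over more than 1 log2 unit within each group.

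Among 16 coregulators 15 were tested, with 2 higher and a median difference of 0.15. Mn1, a transcriptional coactivator of retinoid receptors, had log2 levels of 1.77, 1.02 and 1.45 in the positive samples, against -1.79, -1.67 and -1.67 in the negative samples. Positive and negative samples lay more than 2 log2 units apart, and the difference was 3.13 (SE 0.21, 8.74-fold, limma adjusted p = 0.000859). Rere, a coregulator of retinoic acid signalling in mouse embryos, was also higher (difference 0.73, SE 0.15, limma adjusted p = 0.0203), and lost its call in the authors' values (0.34, adjusted p = 0.0962) and with quantile normalization (0.57, adjusted p = 0.0651), as well as without positive array 3 or any negative array (0.0534 to 0.0826).

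Genes commonly induced by retinoic acid in other systems went both ways, with 5 of 18 tested genes higher, 4 lower and a median difference of 0.16. Rarres2, which encodes the secreted protein chemerin, had log2 levels of -1.18, -1.81 and -1.23 in the positive samples, against -4.43, -4.89 and -5.10 in the negative samples, of which 1 was well above background (difference 3.40, SE 0.25, limma adjusted p = 0.00118). Tgm2, a transglutaminase, had log2 levels of -0.84, -0.95 and -0.88 in the positive samples, against -3.19, -3.47 and -3.95 in the negative samples (difference 2.64, SE 0.21, limma adjusted p = 0.00135). For both genes the groups lay far apart. On the authors' values the difference was 1.34 for Rarres2 and 1.31 for Tgm2, with adjusted p of 0.000905 and 0.000581.

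Lama1, a laminin chain, and Cdx1, a homeobox gene of posterior patterning, were lower instead. The log2 levels of Lama1 were 1.56, 1.71 and 1.61 in the positive samples, against 3.48, 3.48 and 3.98 in the negative samples (difference -2.03, SE 0.18, limma adjusted p = 0.0018). Those of Cdx1 were -3.84, -4.26 and -4.19 in the positive samples, against -2.56, -2.71 and -2.47 in the negative samples (difference -1.52, SE 0.16, limma adjusted p = 0.00323). Cdx1 was well above background on 2 of the 3 positive arrays, and -0.69 was its difference in the authors' values. The other called genes of the list, named after their values were seen, were the limb gene Tbx5, Pdgfra, Ets1, Bhlhe40 and Plaur. Tbx5 was higher by 1.02 (limma adjusted p = 0.0111, and 0.0529 without negative array 3) and Pdgfra, a growth factor receptor, by 0.79 (limma adjusted p = 0.0121, and 0.0606 and 0.0532 without negative arrays 1 and 3). The Ets1 difference of 0.54 (limma adjusted p = 0.0419) lost its call with the slide as a block (adjusted p = 0.0644) and without any single array (0.0530 to 0.143). Bhlhe40 and Plaur were at least 1.51-fold and 1.78-fold lower in positive cells, where no array was well above background for either (limma adjusted p of 0.00345 and 0.00725). Each bound starts from the mean of the negative samples. That mean was set against the weakest signal counted as well above background, or the measured level where higher, averaged over the positive arrays. These bounds hold for the scaling by the 75th percentile. In the authors' values the measured difference was -0.47 for both, with an adjusted p of 0.0324 for Bhlhe40 and of 0.0565 for Plaur, and the Plaur call was also lost with normexp and quantile normalization (adjusted p = 0.0614).

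**Figure D4:**
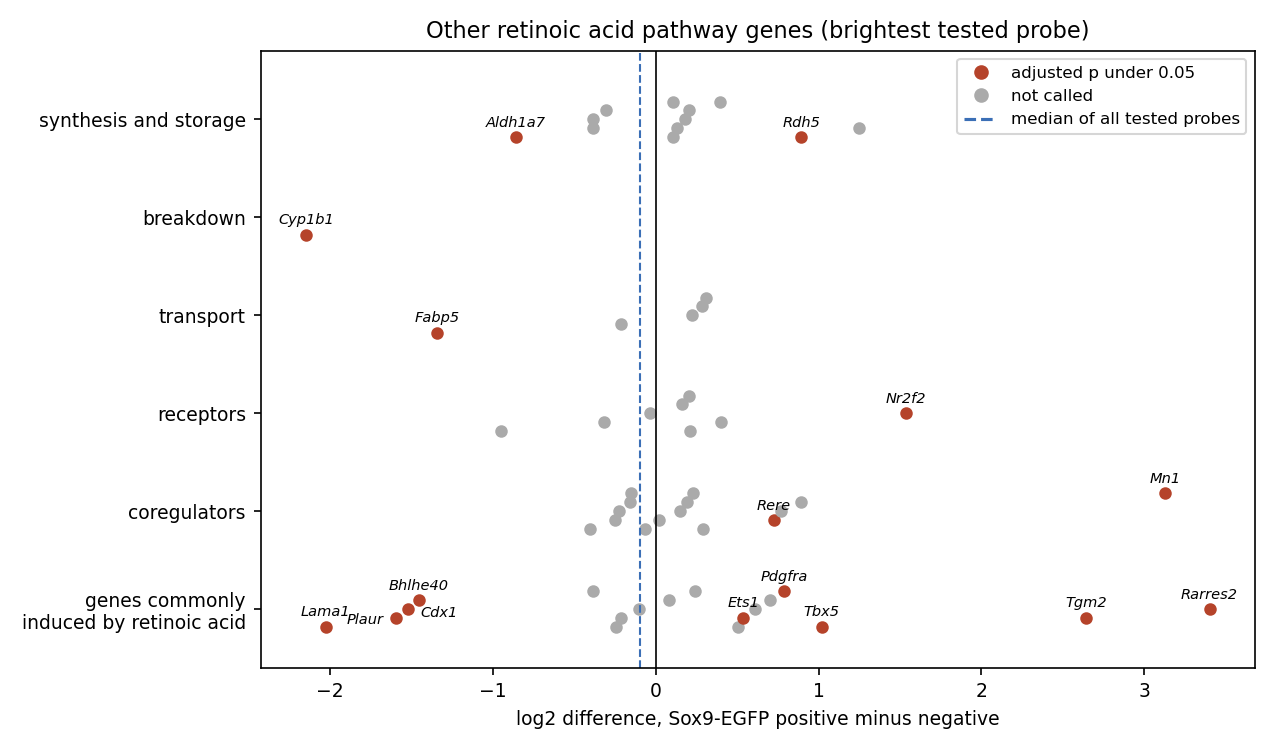
Log2 difference, Sox9-EGFP positive minus negative (x axis), of the brightest tested probe of 58 other retinoic acid pathway genes by list (y axis; a gene of 2 lists is drawn in both), with the genes called by limma named and in red, and the median of all tested probes, -0.10, as a dashed line. The called genes run from Cyp1b1 at -2.15 to Rarres2 at 3.40, and Cyp1b1, Rarres2, Cdx1, Aldh1a7, Bhlhe40 and Plaur are drawn at their measured values although not every array of the group with less signal was well above background.

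The genes whose profile over the 6 arrays was most like that of a member were found by the root mean square distance between mean-centred log2 levels, among 11757 other genes above background on all arrays. Nearest to Aldh1a2 were Sgk1, Bmper and Dtx1, at distances of 0.26, 0.31 and 0.38 and with differences of 3.23, 3.21 and 2.98. Nearest to Cyp26b1 were Fjx1, Snhg12 and Tmem41a, each at a distance of 0.08. For Rarb they were Mgp, Gcgr and Slc35g2, at 0.08, 0.10 and 0.10. For Rarg they were Atf7ip, Brat1 and Sall2, none of which was called.

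Markers of other populations were read on the same arrays, as levels summed over each list on a linear scale relative to the 75th percentile. The cartilage list, with 5 of 7 genes higher, summed to 291 to 330 in positive samples and 66.0 to 90.8 in negative samples. It holds Sox9, whose reporter defined the groups, and Sox6, which passed the background filter through the positive samples only. Most of the sum in the negative samples came from Sox5, which was not called (mean log2 level 6.38 in positive and 6.06 in negative samples). The interdigital and distal mesenchyme list, with all 6 genes lower, summed to 33.7 to 50.3 in positive samples and 190 to 218 in negative samples. Muscle precursor genes, 4 of 6 tested and 2 lower, summed to 0.120 to 0.184 in positive samples and 0.576 to 1.29 in negative samples. Pax7 and Myf5 were not tested, since neither stood above background on all arrays of a group. All 4 tested muscle genes passed the background filter through the negative samples only, so the filter itself favoured a lower sum in positive samples. Pax3 and Myod1 were well above background on no positive array. Ectoderm genes, 5 of 7 tested and 2 higher, summed to 22.2 to 36.6 in positive samples and 9.17 to 11.53 in negative samples, with Krt5 and Cdh1 not tested. The 2 higher genes were Krt8 and Krt18, while Trp63, Krt14 and Epcam were not called. Most of the sum came from Trp63 (mean log2 level 4.10 in positive and 3.09 in negative samples) and Krt18 (3.19 and 0.60). Blood genes, 3 of 5 tested and 1 lower, summed to 0.407 to 1.31 in positive samples and 1.11 to 11.8 in negative samples, the highest being negative sample 2, with Ptprc not tested. The lower gene, Pf4, passed the filter through the negative samples only. The endothelial list, 2 of 6 tested and none called, summed to 2.75 to 7.84 in positive samples and 1.85 to 4.69 in negative samples, with Cdh5, Tek, Emcn and Cldn5 not tested. Nearly all of this sum came from Kdr (mean log2 level 1.95 in positive and 1.59 in negative samples). Pecam1 was dim, at -3.50 and -3.38. The neural crest list, 2 of 5 tested and 1 higher, summed to 1.25 to 1.44 in positive samples and 0.924 to 0.958 in negative samples, with Foxd3 and Erbb3 not tested. The higher gene, Sox10, passed the filter through the positive samples only. Genes of the labelled mesenchyme stood above background in both groups, with all 5 tested, 2 higher (Pdgfra and Tbx5) and 2 lower (Prrx2 and Twist1). Their levels summed to 83.7 to 93.4 in positive samples and 138 to 151 in negative samples, of which Prrx2, with log2 levels averaging 4.62 in positive samples and 6.55 in negative samples, made up the largest share in the negative samples. The part that these populations have in the differences of the retinoic acid genes was not tested.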

How the data were processed

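RNA of 3 Sox9-EGFP positive and 3 Sox9-EGFP negative samples was measured on 1-colour Agilent arrays of 62976 spots. Per the file headers, Feature Extraction 10.7.3.1 produced the intensity values the authors deposited, with background subtracted inside each array and no step between arrays. The deposited table of log2 values was made by the authors and has the same median of 6.47 in every column here; no label or header names its background correction.

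From each log2 intensity the 75th percentile of that array's 59305 non-control spots was subtracted, and spots of a probe were averaged. A probe had to be well above background on every array of one group or of both (26490 were), and 17 with outlier spots were left out. Groups were compared by probe with limma 3.58.1 in R 4.3.3 (Benjamini-Hochberg adjustment over 26473 probes, threshold 0.05), and differences between pairs of genes with two-sided exact permutation tests. Probes are placed on mm9 as the files do; whether a probe lies in an exon or untranslated region was not determined. No spot was saturated (0 on every array). The number of arrays limits the precision. The fit was tested on simulated data.

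The brightest tested probe stands for a gene. Named genes are all members, up to 4 called genes of each pathway list with the smallest adjusted p, listed counterparts of members, the 3 most similar genes for 4 members, and Sox9. Some genes that the rule names are not reported here. The members and lists were chosen with earlier results of these data known.

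A positive and a negative array shared each of the 3 slides. Deviations of arrays on the same slide from their group mean correlated at 0.56, 0.41 and 0.24. The slide was fitted as a block as an alternative. For arrays with the same replicate number the correlations were -0.27, -0.46 and 0.28. With 3 arrays per group these values cannot settle which arrays were handled together. Other alternatives were quantile normalization with and without normexp (offset of 50), median centring, the authors' values, no background filter, array weights, a replicate block, averaged probes per gene, robust and trended moderation, a background filter over all 6 arrays, a threshold of 0.01, and leaving out each array in turn.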

Additional observations from a re-analysis of the deposited data

How the results depend on the processing

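Of the 18 alternatives, all kept the Aldh1a2 call (3.18 to 3.84), and all but that without a background filter the Cyp26b1 call (-1.53 to -1.04). No member call reversed. The sign turned, without a call, with normexp and quantile normalization, with quantile normalization and in the authors' values for Rara (0.18, 0.19 and 0.16, and 0.16, 0.13 and 0.15 at its dimmer probe), Rarg (0.27, 0.26 and 0.27) and Rdh10 (-0.044, -0.10 and -0.05). Under the same 3 settings Stra6 lost its call (-0.59, -0.65 and -0.58), and Crabp1 lost it under the first 2 (-0.83 and -0.90). The cause was not tested.

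With no background filter 55640 probes were tested, and calls fell to 1350 probes, 1 member probe and 9 pathway genes, against 5731, 7 and 16. Differences did not change there (Cyp26b1 -1.33, Rarb 1.26, Dhrs3 0.83, Crabp1 -1.11, Crabp2 0.66 and Stra6 -0.79), but their adjusted p was 0.0589 to 0.179. At a threshold of 0.01, 1718 probes, 3 member probes and 9 pathway genes were called, without Rarb, Crabp1, Crabp2 and Stra6. Quantile normalization called 3795 probes and array weights 9598. Lower calls were 63.2% of all calls, and 54.9% to 56.3% under the 3 settings named first, 36% with no background filter and 47.2% with the replicate block.

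The slide block ended only the Crabp1 call among members (-1.11, adjusted p = 0.0544). With the replicate block 1370 probes, 2 member probes and 8 pathway genes were called, and Rarb (1.26), Dhrs3 (0.83), Crabp1 (-1.11), Crabp2 (0.66) and Stra6 (-0.79) were not. The labels do not say whether positive and negative samples with the same replicate number belong together. Leaving out 1 array called 2027 to 6449 probes, 3 to 6 member probes and 9 to 19 pathway genes. The differences then ranged over 1.10 to 1.43 (Rarb), -1.30 to -0.87 (Crabp1), 0.60 to 0.76 (Crabp2), -0.92 to -0.67 (Stra6), -0.028 to 0.36 (Rdh10) and -0.019 to 0.0061 (Rara and Rarg pair).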
